A study of Oryza sativa Japonica Group with 8 samples.

Results

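The glutathione S-transferase (GST) genes of rice were followed in leaves during 3 days without water. They were taken by wording: a protein-coding gene was included when its description in the deposited tables named a glutathione S-transferase, a glutathione transferase or a word starting with GST, and did not name a glutaredoxin. The rule found 65 genes among the 27626 genes listed in both tables of the study, and 43 of these had a mean of at least 1 FPKM (fragment counts divided by transcript length and by the number of mapped fragments) in each table. The other 22 genes were marked as low. A further 7 genes that met the wording were listed in 1 table only. One of the 43 genes, Os04g0270100, met the rule only through the letters GST1 in the name of a G1 to S phase transition protein, a GTP-binding protein, so it is not a GST by its description. It was kept in the counts and left out of the summed levels.

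GSTs join the tripeptide glutathione to electrophilic compounds, and several also reduce organic peroxides with glutathione. Plants hold large tau and phi classes of these enzymes, known from the detoxification of herbicides and of products of oxidative damage, and the conjugates are moved into the vacuole by ABC transporters of the multidrug resistance-associated (MRP) type. Many rice tau genes lie side by side in a cluster on chromosome 10.

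The plants were of the japonica variety Ilmi, labelled 5 weeks old and grown in soil pots in a greenhouse, and no genotype or chemical treatment separated the groups. Soil water was set near 75% and water was then withheld. Leaves of well-watered plants and of plants on drought day 1, day 2 and day 3 were each sequenced as 1 strand-specific total RNA library and 1 strand-specific mRNA library, 8 libraries in all. With 1 library per treatment and kind no replicate error can be given, and the calls below rest on a rule of size without a test. Only 1 alternative, fitted with limma, gave p-values, by treating total RNA and mRNA as replicates. The labels do not say whether both kinds were made from the same RNA or how many plants went into a library, so the likeness of the 2 kinds may be technical.

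The deposited values sum to between 678548 and 755487 FPKM per library, and total fragment counts are not given in them. If the smallest step between low values is taken as 1 fragment, 1 FPKM on a transcript of 1 kb stands for 16.3 to 24.6 fragments. The exact Poisson 95% interval at the shallowest library is 9.38 to 26.4 fragments and covers counting error only. Leaf markers were present in the well-watered libraries and much lower on day 3: the 6 genes for the Rubisco small subunit summed to 150 FPKM in total RNA on day 3, against 22565 FPKM in well-watered leaves, and to 105 FPKM against 17939 FPKM in mRNA. The 15 chlorophyll a/b-binding protein genes summed to 765 FPKM on day 3 and 33013 FPKM in well-watered leaves in total RNA, and to 776 and 31380 FPKM in mRNA. The 9 seed storage genes for glutelins and prolamins were low but moved with the drought days as well. They summed to 29.3, 37.7, 37.7 and 59.0 FPKM in total RNA in well-watered leaves and on days 1, 2 and 3, and to 43.2, 52.2, 50.2 and 126 FPKM in mRNA. In bulk leaf RNA, fewer cells of a type and less RNA per cell cannot be told apart, and the part that these shifts in marker RNA had in the values of other genes was not tested.

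The GST family split. Some genes with a few FPKM or less in well-watered leaves came to stand among its most abundant members, and others that were abundant in well-watered leaves were nearly gone by day 3. A gene was called higher on a drought day when its log2 ratio of FPKM + 1 to the well-watered library reached 1 in the total RNA table as well as in the mRNA table, and lower when both ratios were -1 or less. This scale understates the change of genes with low values. Every drought day was set against the same well-watered libraries, so the 3 comparisons are not independent of each other.

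On day 1, 7 of the 43 genes were called higher (16.3%, against 6.93% of the 18113 genes of the study that passed the same filter) and 3 were called lower (6.98%, against 2.46%). On day 2, 13 were higher (30.2%, against 14.5% of all genes) and 10 were lower (23.3%, against 11.1%). On day 3, 13 were higher (30.2%, against 18.2%) and 15 were lower (34.9%, against 25.9%). By this rule members were therefore called more often than genes at large in both directions on each of the 3 days. These differences were not tested. The excess of lower calls on day 3 was small in mRNA alone, with 15 of 43 members (34.9%) beside 33.2% of all genes. The split between the directions depended on the scaling of the libraries, for all genes as well as for members. With size factors from the median ratio over genes, day 1 had 6 higher and 5 lower calls, beside 4.92% and 3.74% of all genes. Day 3 then had 15 higher and 12 lower ones, beside 24.3% and 19.3% of all genes.

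Large ratios were frequent. Differences of at least 4-fold in both kinds were found on day 3 for 12 higher and 8 lower genes, which is 46.5% of the members, beside 19.0% of all genes. At least 8-fold differences were found for 7 higher and 5 lower genes, or 27.9%, beside 8.82% of all genes. The median ratio of the members on day 3 was near 0, at -0.02 in total RNA and -0.18 in mRNA, while their quartiles ran from -1.45 to 2.45 and from -1.51 to 2.47. All genes had medians of -0.24 and -0.39 and quartiles of -1.11 to 0.75 and of -1.33 to 0.63. On day 1 the medians of the members were 0.30 and 0.25, with 0.23 and 0.17 for all genes, and on day 2 they were 0.39 and 0.49, with 0.11 and 0.06 for all genes. The sign of the members' day 3 median also changed with the scaling: under median-ratio scaling it was 0.35 in total RNA and 0.32 in mRNA, where that of all genes was 0.07 and 0.10.

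**Figure D1:**
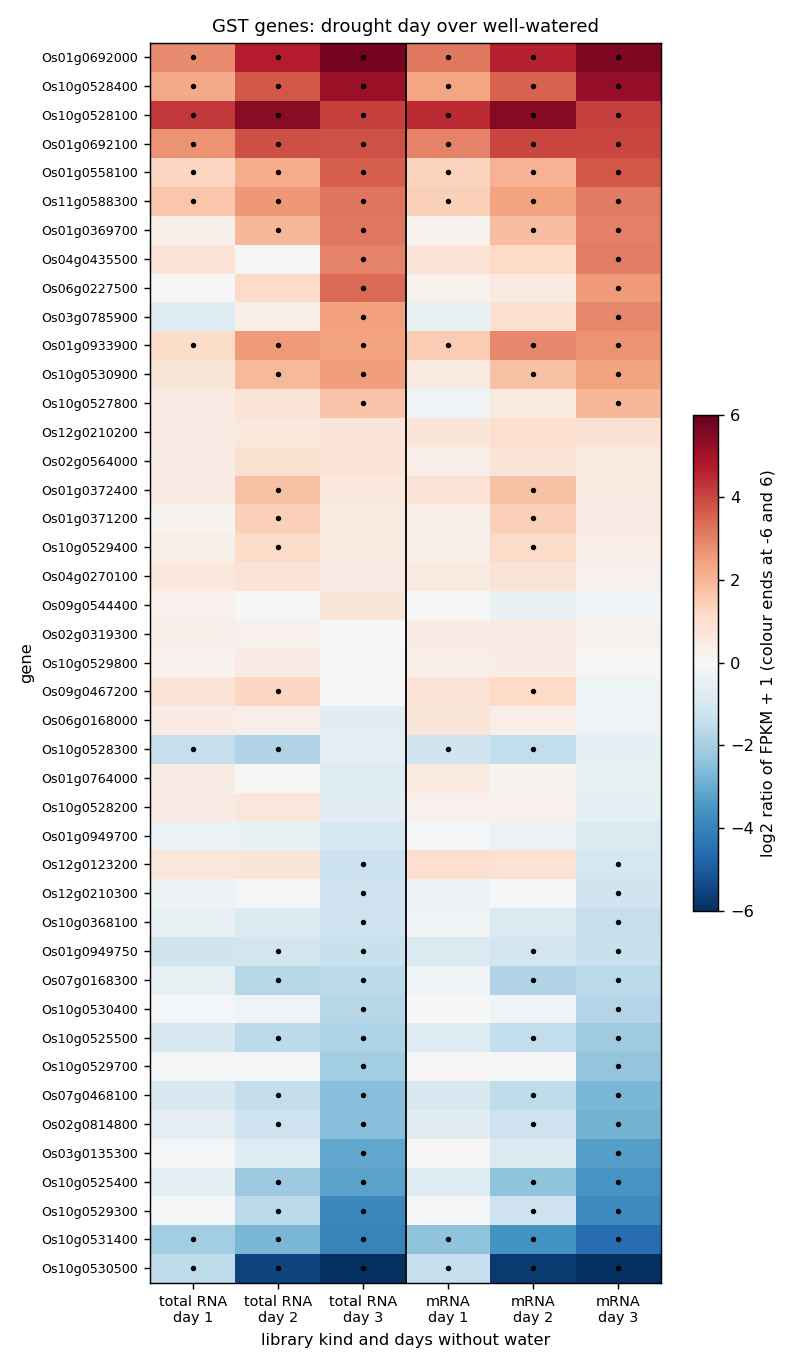
Log2 ratio of FPKM + 1 to the well-watered library for the 43 measured genes (rows) on drought days 1, 2 and 3, in total RNA and in mRNA (columns). Colour runs from -6 to 6 and a dot marks a gene called on that day; on day 3, 13 genes are called higher and 15 lower, and both library kinds show like colours.

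Of the 43 genes, 7 were called higher on the first day without water. The gene with the largest early ratio was Os10g0528100 (chromosome 10, 20551209 to 20552361, build IRGSP-1.0), described as similar to GST 42. In well-watered leaves and on days 1, 2 and 3 it had 3.26, 79.6, 181 and 71.8 FPKM in total RNA. In mRNA the same 4 treatments, in the same order, gave 1.88, 62.8, 127 and 47.9 FPKM. It was low in both well-watered libraries, highest on day 2 in both kinds, and above its well-watered level on every drought day. The log2 ratios of Os10g0528100 for total RNA and mRNA were 4.24 and 4.47 on day 1, 5.42 and 5.47 one day later and 4.09 and 4.08 at the end. All series of 4 values below keep the order well-watered, day 1, day 2 and day 3, and pairs of ratios give total RNA before mRNA.

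A pair of neighbours on chromosome 1 rose together. Os01g0692000 (chromosome 1, 28566638 to 28567684), described as similar to the tau gene GSTU6, had 0.466, 9.46, 37.5 and 76.3 FPKM in total RNA and 0.786, 14.9, 42.6 and 84.5 FPKM in mRNA. It was below 1 FPKM in both well-watered libraries and increased at each step to day 3, where it had the largest ratio of the family (5.72 and 5.58). Os01g0692100, which starts 1154 bases beyond the end of Os01g0692000 and is described by its GST C-terminal-like domain, had 7.47, 54.4, 124 and 120.1 FPKM in total RNA and 6.45, 58.0, 117 and 117 FPKM in mRNA. That gene was about as high on day 2 as on day 3 in both kinds, with ratios of 2.71 and 2.99, 3.88 and 3.99 and 3.84 and 3.99 on the 3 days.

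Os10g0528400 (chromosome 10, 20559589 to 20560614), a gene described by its GST C-terminal-like domain, had 2.22, 14.8, 41.3 and 115 FPKM in total RNA and 2.11, 15.2, 34.7 and 119.9 FPKM in mRNA. Its level went up on each day in both kinds, and its day 3 ratio of 5.17 and 5.28 was the second largest of the family. Os01g0558100, described as similar to GST TSI-1, had 5.19, 13.6, 28.2 and 74.4 FPKM in total RNA and 4.40, 12.7, 22.1 and 71.3 FPKM in mRNA, again higher on each day than on the day before. Os11g0588300 (chromosome 11, 22305918 to 22310081), similar to the Arabidopsis enzyme AtGST 10, started from a well-watered level already above 25 FPKM and had 32.7, 105, 205 and 313 FPKM in total RNA and 29.1, 80.0, 159 and 263 FPKM in mRNA. By day 3 it was the most abundant member in both kinds. Os01g0933900, described as similar to a glutathione transferase III(B), had 4.25, 10.2, 29.5 and 27.4 FPKM in total RNA and 8.48, 26.0, 67.9 and 60.3 FPKM in mRNA. It stood higher in mRNA than in total RNA in all 4 treatments, and was highest on day 2. Its day 1 ratio of 1.10 and 1.51 lay close to the threshold and was not past it under median-ratio scaling or in the deposited quantile-normalized values.

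**Figure D2:**
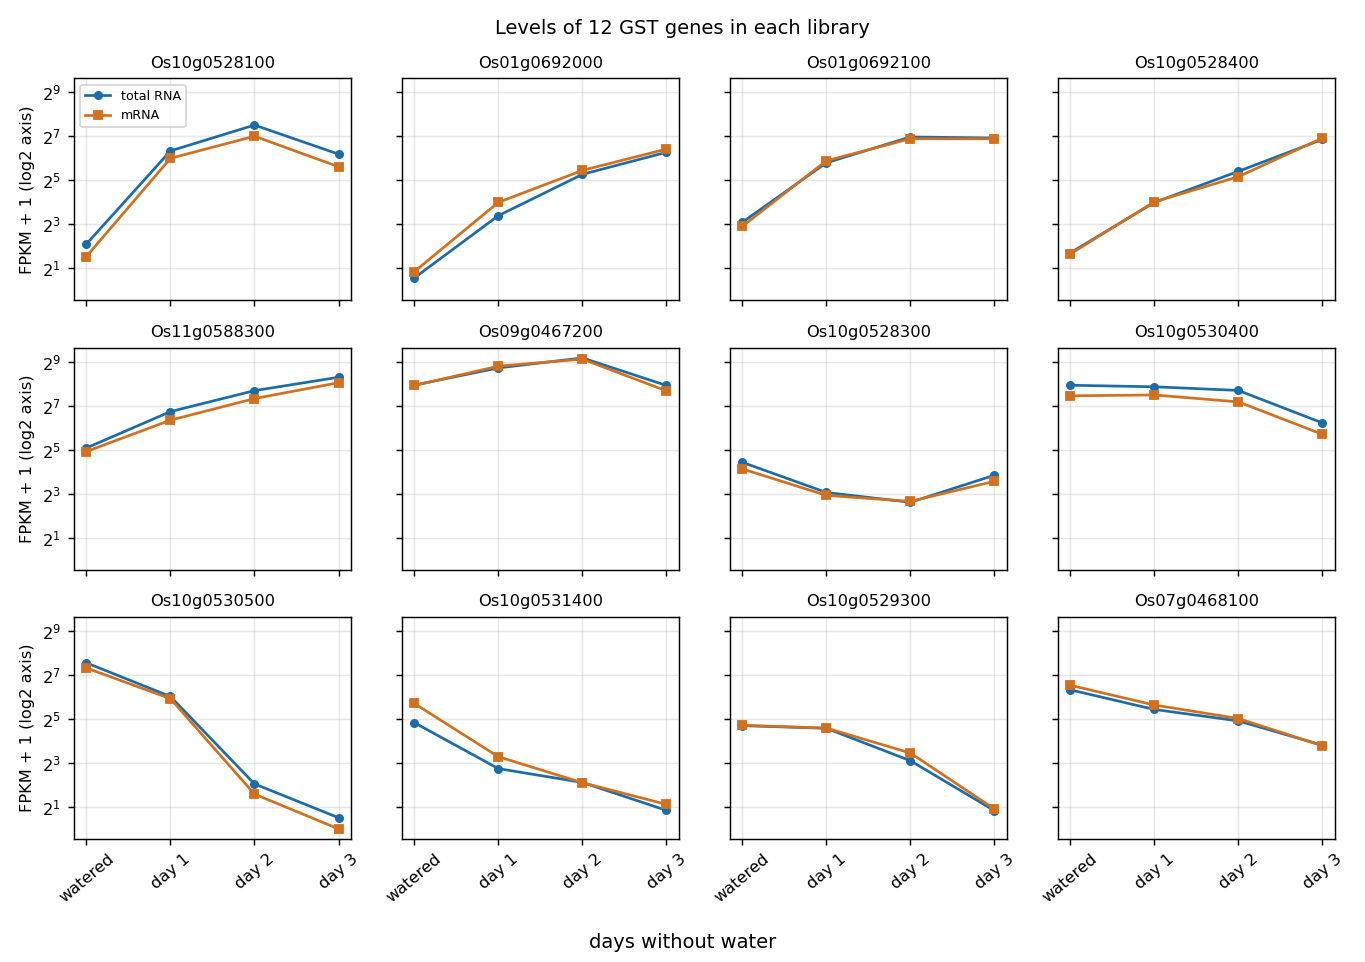
Level (log2 axis of FPKM + 1) of 12 GST genes in well-watered leaves and on drought days 1, 2 and 3, with 1 line for total RNA and 1 for mRNA. The lines of the 2 kinds run close together; Os01g0692000 and Os10g0528400 climb to day 3, Os10g0528100 peaks on day 2, and Os10g0530500 and Os10g0531400 drop by day 3.

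Day 2 held the highest value in both kinds for 11 of the 43 genes (25.6%, beside 12.3% of all genes). Of the 11, 7 were called higher on that day, a call that a day 2 peak favours by itself. The most abundant was Os09g0467200 (chromosome 9, 17747275 to 17748705), described as similar to GST 23, with 244, 419.9, 576 and 241 FPKM in total RNA and 241, 444, 554 and 203 FPKM in mRNA. It led the family in well-watered leaves and on days 1 and 2, and on day 3 it was back near its well-watered level, with ratios of 1.24 and 1.20 on day 2 and -0.02 and -0.25 on day 3. Os01g0371200, described as similar to a GST, had 22.4, 25.5, 61.3 and 32.5 FPKM in total RNA and 19.8, 24.5, 55.2 and 28.4 FPKM in mRNA, and was more than 2-fold higher on day 2 only. Its distant neighbour Os01g0372400, described by its GST C-terminal-like domain, had 1.12, 1.96, 6.14 and 2.28 FPKM in total RNA and 0.544, 1.79, 4.26 and 1.26 FPKM in mRNA, also with its highest value on day 2 in both kinds, at a low level. Os10g0529400, similar to GSTU6, had 4.35, 5.79, 10.9 and 7.06 FPKM in total RNA and 4.50, 6.19, 11.1 and 6.16 FPKM in mRNA. The day 2 calls of Os01g0372400 and Os10g0529400 were lost with a pseudocount of 5 in place of 1, at ratios of 0.74 and 0.76. Os01g0692100, Os01g0933900 and Os10g0528100 were the other called genes with a day 2 peak.

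Another 10 genes (23.3%, beside 21.5% of all genes) were highest on day 3 in both kinds, and all 10 were called higher then. Being highest on day 3 favours such a call by itself, so it is not separate evidence for these 10 genes. Among them Os06g0227500 in both kinds, and Os10g0527800 in mRNA, passed the filter on low values only through the day 3 library, so a difference on day 3 was built into their selection. Os01g0369700 (chromosome 1, 15170441 to 15171859), described as similar to GST 8, had 27.5, 35.6, 112 and 256 FPKM in total RNA and 26.3, 31.0, 95.9 and 221 FPKM in mRNA. It was little different from well-watered leaves on day 1, and was the second most abundant member on day 3, with ratios of 1.99 and 1.83 on day 2 and 3.17 and 3.02 on day 3. Os04g0435500, described by its GST C-terminal-like domain, had 8.10, 15.2, 8.69 and 69.7 FPKM in total RNA and 9.23, 17.3, 22.5 and 84.5 FPKM in mRNA. The kinds disagreed on day 2, when it had 8.69 FPKM in total RNA, close to its well-watered level, and 22.5 FPKM in mRNA. This was the widest gap between the ratios of the 2 kinds for any member, 1.11 on the log2 scale, and it came from the shorter of its 2 transcripts, which had 5.97 FPKM in total RNA and 20.7 FPKM in mRNA. On day 3 both kinds were high, with ratios of 2.96 and 3.06.

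The remaining genes called higher on day 3 were lower in level, and they were picked out after their values were seen. Os03g0785900, described as similar to a GST, had 4.78, 2.45, 6.55 and 31.0 FPKM in total RNA and 4.75, 3.40, 10.01 and 41.3 FPKM in mRNA, so that both day 3 libraries stood apart from the 6 others. Os10g0530900, similar to GST 30, had 5.11, 9.01, 22.4 and 34.1 FPKM in total RNA and 4.85, 7.56, 18.6 and 29.7 FPKM in mRNA, with a step up on every day. Os10g0527800, similar to tau class GST protein 3, reached 5.25 FPKM in total RNA and 5.44 FPKM in mRNA on day 3, against 0.904 and 0.612 FPKM in well-watered leaves. Os06g0227500, described as similar to a GST, had 0.0649, 0.0382, 1.35 and 10.3 FPKM in total RNA and 0, 0.184, 0.402 and 4.82 FPKM in mRNA, with the day 3 library highest in each kind. Its annotated transcript is 324 bases long, the shortest among the measured members, so few fragments stand behind these values.

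The genes that fell included abundant ones. Os10g0530500 (chromosome 10, 20622453 to 20623389), described as similar to GST Cla47, had 187, 64.1, 3.13 and 0.423 FPKM in total RNA and 159, 59.9, 2.00 and 0 FPKM in mRNA. It was the third most abundant member of well-watered total RNA, lower in both kinds on day 1, and listed at 0 in the day 3 mRNA library. Its day 3 ratio in total RNA was -7.05. Its neighbour Os10g0530400, which carries the same description and ends 1929 bases before Os10g0530500 begins, had 243, 231, 206 and 73.3 FPKM in total RNA and 174, 178, 143 and 50.9 FPKM in mRNA. Os10g0530400 kept most of its level through day 2 and was lower on day 3, with ratios of -1.71 and -1.75.

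Os10g0531400, described as GST 30, had 27.5, 5.70, 3.33 and 0.793 FPKM in total RNA and 51.3, 8.74, 3.29 and 1.17 FPKM in mRNA. It was the member with the lowest day 1 ratio, -2.09 and -2.42. Its span shares 786 bases with Os10g0531300, a low GST gene at no more than 0.451 FPKM in any library, so the split of reads between the 2 genes is uncertain. Os10g0529300, similar to tau class GST protein 3, had 24.96, 22.9, 7.59 and 0.778 FPKM in total RNA and 25.3, 23.1, 9.96 and 0.874 FPKM in mRNA, and its decrease began only after day 1. Os10g0525400, similar to GSTU31, had 26.8, 17.8, 5.06 and 1.98 FPKM in total RNA and 40.1, 23.1, 6.81 and 2.54 FPKM in mRNA. Its neighbour Os10g0525500, similar to glutathione transferase 31, had 22.2, 11.0, 6.75 and 5.44 FPKM in total RNA and 18.0, 10.1, 5.85 and 3.31 FPKM in mRNA. Both were lower on each day than on the day before.

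Elsewhere in the genome Os07g0468100 (chromosome 7, 16674227 to 16675326), described as similar to GST 19, had 79.5, 42.3, 29.2 and 13.0 FPKM in total RNA and 91.9, 48.8, 31.5 and 12.8 FPKM in mRNA, a stepwise decrease in both kinds. Its day 1 ratio of -0.89 and -0.90 missed the threshold as deposited and passed it under median-ratio scaling, at -1.09. Os02g0814800, described by its GST C-terminal-like domain, had 8.51, 5.55, 3.08 and 0.697 FPKM in total RNA and 17.9, 11.3, 6.89 and 1.61 FPKM in mRNA. Os03g0135300, similar to GST 10, had 30.7, 28.0, 17.5 and 2.65 FPKM in total RNA and 39.3, 39.7, 21.2 and 3.14 FPKM in mRNA, and was far lower on day 3 than on day 2. Os07g0168300, similar to GSTU6, had 11.7, 8.45, 2.93 and 3.34 FPKM in total RNA and 11.7, 9.49, 2.63 and 3.15 FPKM in mRNA, and was as low on day 2 as on day 3.

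Os10g0529700, similar to glutathione transferase 35, stayed at its well-watered level through day 2 and was lower on day 3, with 59.1, 54.0, 56.8 and 13.4 FPKM in total RNA and 77.5, 81.8, 71.2 and 14.4 FPKM in mRNA. Os10g0528300, tau class GST protein 4, was called lower on days 1 and 2 but not on day 3, and had 20.5, 7.28, 5.08 and 13.3 FPKM in total RNA and 16.4, 6.55, 5.25 and 10.8 FPKM in mRNA. It was lowest on day 2 and higher again on day 3, where its ratios were -0.59 and -0.57. Its day 1 call was lost with a pseudocount of 5, at -0.89. The other 4 genes called lower on day 3, named after their values were seen, were Os01g0949750 (-1.36 and -1.32), Os10g0368100 (-1.23 and -1.40), Os12g0123200 (-1.31 and -1.07) and Os12g0210300 (-1.25 and -1.17). Os12g0123200 stood above its well-watered level on days 1 and 2, without a call. It had 20.9, 34.6, 35.2 and 7.84 FPKM in total RNA and 16.8, 34.7, 32.1 and 7.51 FPKM in mRNA.

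In all, 13 genes (30.2%, beside 22.1% of all genes) had their highest value in well-watered leaves in both kinds, and 2 genes (4.65%, beside 19.8%) had it on day 1. Levels went up at every step in both kinds for 6 genes (13.95%, beside 13.91% of all genes) and down at every step for 9 (20.9%, beside 17.0%), shares at or near those of all genes.

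A set of 10 measured genes was called on no day. The most abundant of these 10 was Os01g0764000 (chromosome 1, 32148159 to 32152034), described as a phi class GST-I, with 159, 216, 155 and 93.0 FPKM in total RNA and 161, 243, 180.2 and 118 FPKM in mRNA. It was highest on day 1 in both kinds with day 1 ratios of 0.44 and 0.59 and day 3 ratios of -0.77 and -0.45. Os10g0529800, similar to tau class GST protein 4, had 53.7, 61.7, 75.8 and 51.6 FPKM in total RNA and 62.0, 80.7, 83.4 and 65.5 FPKM in mRNA, with ratios between -0.05 and 0.49 on all days in both kinds. Os02g0564000, described as similar to a GST, had 17.0, 23.7, 32.5 and 30.8 FPKM in total RNA and 37.6, 49.98, 65.7 and 57.2 FPKM in mRNA. Os02g0319300, described by its GST C-terminal-like domain, had 17.5, 21.8, 21.1 and 17.5 FPKM in total RNA and 24.6, 34.3, 34.9 and 28.9 FPKM in mRNA. The GTP-binding protein gene Os04g0270100 had 71.7, 113, 127 and 99.6 FPKM in total RNA and 49.97, 73.2, 87.5 and 60.0 FPKM in mRNA. The others were Os01g0949700, Os06g0168000, Os09g0544400, Os10g0528200 and Os12g0210200, which lay between 0.917 and 21.3 FPKM. Os01g0949700 passed the threshold on day 3 in total RNA but not in mRNA (-1.05 and -0.89). Under median-ratio scaling Os02g0564000 and Os12g0210200 were called higher on day 3, at 1.15 and 1.12.

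Some genes lying side by side differed in their calls, and whether neighbours differed more or less than other members was not tested. Members within 50 kb of each other were joined into tandem groups, and the largest lay on chromosome 10 from 20551209 to 20646880, where 95.7 kb held 16 members, 12 of them measured. Of these 12, day 1 had 2 higher and 3 lower calls, day 2 had 4 of each, and day 3 had 3 higher and 5 lower ones. Reading along the chromosome, Os10g0528100 and Os10g0528400, both called higher on each day, flank Os10g0528200, which was called on none, and Os10g0528300, which was lower on days 1 and 2. Os10g0528300 and Os10g0528400 are 1975 bases apart. On day 2 they had 5.08 and 41.3 FPKM in total RNA, and in well-watered leaves 20.5 and 2.22 FPKM. Os10g0529300 and Os10g0529400, 1719 bases apart, were also called in opposite directions on day 2, with ratios of -1.60 and -1.26 for Os10g0529300 and 1.16 and 1.14 for Os10g0529400.

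**Figure D3:**
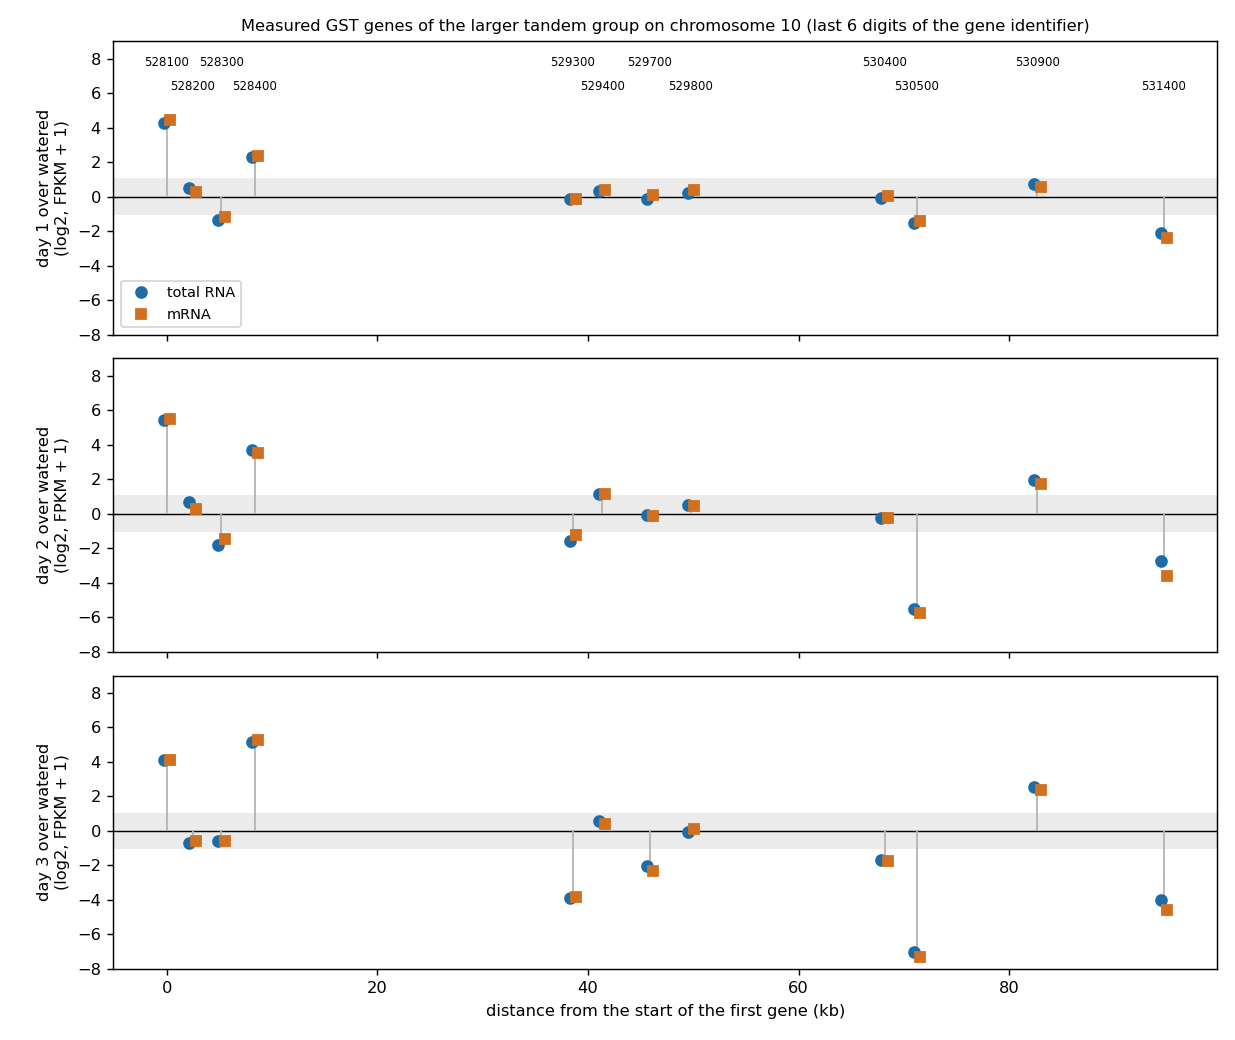
Log2 ratio of FPKM + 1 to the well-watered library on drought days 1, 2 and 3 (rows of panels) for the 12 measured genes of the larger chromosome 10 group, in chromosome order, in total RNA and in mRNA. The grey band runs from -1 to 1; on day 3 Os10g0528100, Os10g0528400 and Os10g0530900 stand above it and 5 genes, Os10g0530500 lowest, stand below it.

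The 12 measured genes of this group summed to 636, 564, 622 and 384 FPKM in total RNA and to 582, 536, 515 and 350 FPKM in mRNA. Their share of the summed GST level was 42.7% in well-watered leaves, 32.4% on day 1, 28.3% on day 2 and 20.6% on day 3 in total RNA. In mRNA the shares were 38.9%, 29.1%, 24.0% and 19.1%. The group did not fall as a whole, since 3 of the 12 genes were called higher on day 3 and 5 lower. Its most abundant genes in well-watered leaves were Os10g0530400 and Os10g0530500, with 243 and 187 FPKM in total RNA and 174 and 159 FPKM in mRNA. On day 3 they had 73.3 and 0.423 FPKM in total RNA and 50.9 and 0 FPKM in mRNA. A smaller group, 67.0 kb long, lay at 20432061 to 20499096 on chromosome 10 and held 5 members. Its 3 measured genes were Os10g0525400 and Os10g0525500, lower on days 2 and 3, and Os10g0527800, higher on day 3.

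On chromosome 1 a group of 6 members, 3 measured, spread over 175 kb from 15170441 to 15345409. All 3, Os01g0369700, Os01g0371200 and Os01g0372400, were called higher on day 2, when 14.5% of all genes were. Of these, Os01g0369700 alone was called on day 3. The pair Os01g0692000 and Os01g0692100 was higher on each of the 3 days. Among the 11 pairs of neighbouring genes in tandem groups with both measured, the calls were opposite for 1 pair on day 1, 2 pairs on day 2 and 0 pairs on day 3. Both genes had the same call in 1, 2 and 3 pairs on days 1, 2 and 3. Only 1 of the 2 was called in 3, 4 and 7 pairs. Like counts for neighbouring pairs of other genes were not made. A pair with only 1 called could still move alike, as Os01g0949700 (-1.05 and -0.89) and Os01g0949750 (-1.36 and -1.32) did on day 3. The sources used here do not say how reads that fit more than 1 gene were shared out. No sequences were compared, so how alike neighbours such as Os10g0530400 and Os10g0530500 are is not known here. The split of levels between such neighbours is therefore uncertain.

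Summed over the 42 measured GST genes, the family had 1489, 1740, 2202 and 1869 FPKM in total RNA and 1496, 1843, 2146 and 1834 FPKM in mRNA. The sum was highest on day 2, at 1.48 times the well-watered sum in total RNA and 1.43 times in mRNA. On day 3 it was 1.26 and 1.23 times the well-watered sum. The GST genes made up between 0.197% and 0.317% of all FPKM of a library. The 5 most abundant genes held 55.9% of the family sum on day 3 in total RNA and 50.4% in mRNA, against 61.3% and 55.2% in well-watered leaves.

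The make-up of that sum turned over more than its size. In well-watered leaves Os09g0467200, Os10g0530400, Os10g0530500, Os01g0764000 and Os07g0468100 were the 5 most abundant in total RNA and, in another order, in mRNA. On day 3 the 3 most abundant in both kinds were Os11g0588300, Os01g0369700 and Os09g0467200, followed by Os01g0692100 and Os10g0528400 in total RNA. The leader on days 1 and 2, Os09g0467200, held 26.1% of the family sum on day 2 in total RNA and 25.8% in mRNA. The median gene changed little by comparison. In total RNA its level ran through 15.5, 15.0, 18.5 and 13.1 FPKM, and in mRNA through 16.6, 18.7, 21.2 and 14.3 FPKM.

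**Figure D4:**
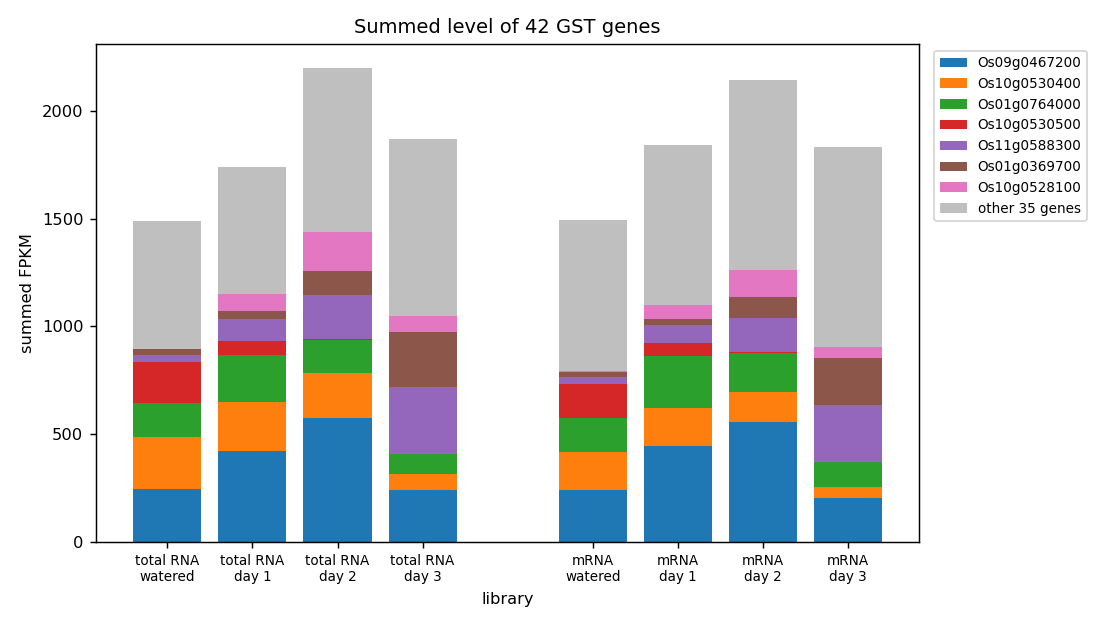
Summed FPKM of the 42 measured GST genes in each of the 8 libraries, as stacked bars that start at 0, with the most abundant genes in colours of their own. The bars are tallest on day 2 (2202 FPKM in total RNA and 2146 FPKM in mRNA); Os09g0467200 is the thickest layer through day 2 and Os11g0588300 on day 3.

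The descriptions name a class for few genes. Of the 65 members 12 were named as tau, 9 of them measured, and 3 as phi, 1 of them measured, while 50 had no class in their description and none was named to any other class. Of the 9 measured tau genes, day 1 had 1 call each way, and the later days had 2 higher and 4 lower calls each. Of all genes, 6.93% were higher and 2.46% lower on day 1, and 14.5% and 11.1% on day 2. On day 3 the shares were 18.2% and 25.9%. The higher ones on day 3 were Os01g0692000 and Os10g0527800, and the lower ones were Os07g0168300, Os10g0368100, Os10g0525400 and Os10g0529300. The genes named as tau therefore had calls in both directions, and 9 genes are too few to speak for the class.

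The library kinds gave like answers for most members. The median difference between the ratios of the 2 kinds, without its sign, was 0.17 on day 1, 0.11 on day 2 and 0.16 on day 3, where all genes had 0.15, 0.16 and 0.24, and no member was called in opposite directions by the kinds. Levels differed between the kinds for some genes. Over the 4 treatments the mean log2 ratio of total RNA to mRNA had a median of 0.05 over the members, beside -0.10 over all genes. It was highest for Os04g0270100 (0.60), Os01g0949700 (0.58) and Os10g0528100 (0.50). Os01g0933900 (-1.10), Os12g0210200 (-1.08) and Os02g0564000 (-1.003) had the lowest values, so each was lower in total RNA than in mRNA. Os12g0210200, similar to GST 18, had 4.94, 7.38, 8.13 and 9.26 FPKM in total RNA and 10.1, 17.5, 21.3 and 19.6 FPKM in mRNA.

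The 22 marked genes had little RNA in these leaves. Of them, 14 were under 1 FPKM in every library and the highest value of any was 3.65 FPKM. The threshold of 1 FPKM separated Os09g0544400, just inside with means of 1.81 FPKM in total RNA and 1.28 FPKM in mRNA, from Os01g0353400, just outside with means of 1.29 and 0.874 FPKM. Os01g0353400 had 0, 0.168, 1.45 and 3.54 FPKM in total RNA and 0, 0.0802, 0.562 and 2.85 FPKM in mRNA, so its values on day 3 were above those of all other treatments. A few marked genes were listed almost wholly in total RNA. Os03g0135100, a phi class gene, had 3.41, 2.56, 2.07 and 2.18 FPKM in total RNA and 0, 0, 0 and 0.22 FPKM in mRNA. Os10g0543800, described as similar to GST 11, had 3.65, 2.25, 2.59 and 2.07 FPKM in total RNA and 0, 0, 0.0446 and 0 FPKM in mRNA. The 7 genes listed in 1 table only stood at no more than 1.34 FPKM, the value of Os03g0134900 in total RNA on day 3, and the highest of the rest was 0.193 FPKM.

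The rest of the glutathione pathway was taken by words in the descriptions, as 8 lists with 58 measured genes, and the shares of all genes called on day 3, 18.2% higher and 25.9% lower, are the background for their counts. Glutathione is made from glutamate and cysteine by glutamate-cysteine ligase, and glycine is then added by glutathione synthetase. None of the 6 synthesis genes was called higher on day 3, and 3 were lower. Os12g0263000, described as similar to glutathione synthase, had 65.4, 22.3, 4.84 and 0.755 FPKM in total RNA and 53.4, 18.1, 3.71 and 0.756 FPKM in mRNA. Its neighbour Os12g0263050, with the same description, had 25.3, 9.91, 2.35 and 0.21 FPKM in total RNA and 19.3, 6.01, 0.997 and 0.477 FPKM in mRNA. Both were lower on every drought day. The gamma-glutamylcysteine synthetase gene Os05g0129000 had 12.5, 22.001, 33.5 and 36.5 FPKM in total RNA and 31.1, 44.5, 76.3 and 57.5 FPKM in mRNA, and was called higher on day 2 but not on day 3, where its ratios were 1.48 and 0.86. It was singled out after its values were seen. Under median-ratio scaling 1 synthesis gene was higher on day 3.

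Glutathione reductase returns oxidised glutathione to its reduced form. Of 3 reductase genes 2 were higher on day 3 and 0 lower, with 1 higher under a filter of at least 5 FPKM. The cytosolic enzyme gene Os02g0813500 had 73.0, 184, 339.7 and 457 FPKM in total RNA and 67.4, 164, 325 and 420.4 FPKM in mRNA, with a step up on each day in both kinds. Os10g0415300, described as similar to a chloroplastic form, had 0.361, 0.655, 2.07 and 6.31 FPKM in total RNA and 0.554, 0.894, 2.37 and 7.88 FPKM in mRNA. Glutathione peroxidases, which act on hydrogen peroxide and lipid peroxides, were divided, with 3 of 6 genes higher and 3 lower on day 3. The lower count was 1 with a pseudocount of 5 and with a filter of at least 5 FPKM. Os03g0358100, described as similar to glutathione peroxidase, had 16.4, 40.1, 47.6 and 105 FPKM in total RNA and 73.2, 119, 201 and 234 FPKM in mRNA. Os06g0185900, with the same description, had 223, 142, 86.0 and 48.3 FPKM in total RNA and 258, 154, 91.6 and 52.7 FPKM in mRNA, and stepped down on every day.

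Ascorbate recycling, which passes electrons to ascorbate in part from glutathione, had 1 higher and 1 lower gene of 5 on day 3. In the deposited quantile-normalized values 3 were lower. The monodehydroascorbate reductase gene Os08g0557600 had 15.8, 52.3, 107 and 178 FPKM in total RNA and 21.7, 64.0, 137 and 229 FPKM in mRNA. The dehydroascorbate reductase gene Os06g0232600, a member of that list whose lead description is a non-protein coding transcript, had 75.3, 56.6, 15.9 and 10.9 FPKM in total RNA and 182, 76.5, 42.0 and 15.9 FPKM in mRNA. Glyoxalases clear methylglyoxal by way of glutathione, and 4 of 10 were higher and 3 lower on day 3. Os05g0171900, a glyoxalase domain gene, had 17.2, 103, 277 and 520.3 FPKM in total RNA and 17.9, 90.4, 264 and 482 FPKM in mRNA, a rise at every step. Os02g0280500, described as similar to glyoxalase I, had 93.2, 30.9, 7.56 and 0.427 FPKM in total RNA and 94.0, 29.5, 6.45 and 0.759 FPKM in mRNA, a fall at every step in both kinds.

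Both gamma-glutamyl transferase genes, which begin the breakdown of glutathione and its conjugates, were called higher on day 2, when 14.5% of all genes were, and neither was called on day 1 or day 3. On day 3, 1 of them was called higher with a pseudocount of 0.1, under median-ratio scaling and in the deposited quantile-normalized values. Os01g0151400 had 27.0, 47.2, 85.5 and 34.6 FPKM in total RNA and 32.9, 57.1, 92.3 and 32.6 FPKM in mRNA. Os01g0151500 had 1.13, 2.32, 4.35 and 2.79 FPKM in total RNA and 1.15, 2.52, 4.57 and 2.57 FPKM in mRNA. Each of the pair peaked on day 2 in both kinds. The list of MRP-type conjugate transporters took in 2 subunits of the ribonuclease P/MRP complex by their wording. Of the 7 ABC transporter genes day 2 and day 3 each had 4 higher calls and 0 lower ones. Os03g0142800, described as similar to an MRP-like ABC transporter, had 7.14, 17.2, 28.1 and 103 FPKM in total RNA and 11.1, 19.3, 40.3 and 91.4 FPKM in mRNA, with the day 3 library highest in each kind. Os06g0158900, similar to MRP 3, had 1.69, 3.34, 8.11 and 30.4 FPKM in total RNA and 1.60, 1.99, 5.92 and 21.4 FPKM in mRNA.

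Sulfur assimilation, which supplies the cysteine, had 0 higher and 6 lower genes of 17 on day 3, though 1 of the 6, Os02g0525400, is a molybdenum cofactor gene taken in by its wording. The lower count was 3 with a pseudocount of 5. Os06g0564500, a cysteine synthase gene, had 32.7, 21.4, 6.22 and 2.36 FPKM in total RNA and 55.2, 35.0, 11.95 and 2.87 FPKM in mRNA. Os05g0591500, described as similar to cysteine synthase, had 2.52, 2.06, 1.57 and 0.518 FPKM in total RNA and 12.4, 10.4, 6.25 and 1.59 FPKM in mRNA. Under median-ratio scaling 2 genes of the list were called higher on day 3, so that the absence of higher calls rests on the scaling.

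**Figure D5:**
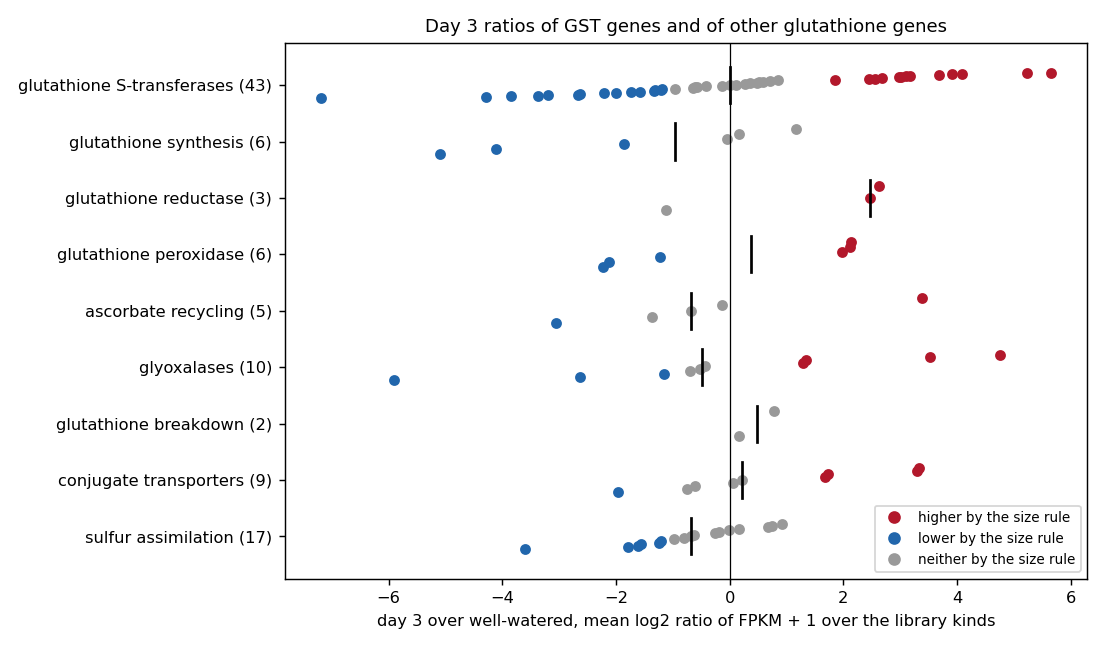
Mean of the total RNA and mRNA log2 ratios of FPKM + 1 on drought day 3 against well-watered leaves, 1 dot per measured gene, for the GST genes and the 8 pathway lists, with a bar at each median. Reductase and transporter genes lie mostly above 0, sulfur assimilation and synthesis genes mostly at or below 0, and the GST genes spread furthest to both sides. The GST row also holds the most genes, 43, which widens a range by itself. The 10 glyoxalases run from -5.90 to 4.76.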

How the data were processed

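Rice leaf RNA went into stranded total RNA and stranded mRNA libraries, per the labels, with 1 library per treatment and kind. The genome build was IRGSP-1.0, per the submitters' processing notes. These also list StringTie 1.3.3b, HISAT2 2.0.5 and Bowtie2 2.2.6, together with Trimmomatic 0.32 and FastQC 0.10.0, without saying what each did. The authors deposited FPKM per transcript and library in 1 table per kind, per the file headers. The tables also hold deposited log2 values, which from the values are log2(FPKM + 1) after quantile normalization within a table, and were used only as an alternative scaling. Transcript lengths are in bases, per the file headers.

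A gene's level is the sum of its transcripts' FPKM, and each drought day was set against the well-watered library of its own table as a log2 ratio of FPKM + 1. The filter asked for a mean of 1 FPKM or more per table. The size rule (a log2 ratio of at least 1 in size in both kinds) has no test and no replicate error. The members and lists were chosen with earlier results of these data known. Named genes were the 6 most abundant members, the 8 highest and 8 lowest called on day 3, the 4 highest and 4 lowest on days 1 and 2, every called member highest on day 2, and the 3 highest and 3 lowest in total RNA over mRNA. For each pathway list the 2 genes with the largest day 3 ratio in size were named. Genes outside this rule complete the account of the members. The calculation was tested on simulated data before use. The alternatives were pseudocounts of 0.1 and 5, other filters, other scalings, single transcripts, each kind alone, and limma 3.58.1 (R 4.3.3) with the kinds taken as replicates. Python 3.11.15 and pandas 2.3.3 were used.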

Additional observations from a re-analysis of the deposited data

How the results depend on the processing

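Of the 6 counts of members called higher or lower on the 3 days, 5 stayed within 1.5 times the reported count under every alternative run. The exception was the count of genes lower on day 1, reported as 3. It was 5 under median-ratio scaling and 6 in the deposited quantile-normalized values. The share of all genes lower on day 1 went from 2.46% to 3.74% and 4.22% under the same scalings. The cause was not tested. Over all alternatives the genes higher on day 3 numbered 11 to 15 and those lower on day 3 numbered 12 to 16. The share of all genes called higher on day 3 ran from 12.9% without a filter to 24.3% under median-ratio scaling. For lower calls it ran from 13.5% with a pseudocount of 5 to 33.2% in mRNA alone. Steady counts of members therefore stood beside a moving background, and without a filter 65 members were counted in place of 43. A limma fit with treatment and library kind as terms, calling a Benjamini-Hochberg adjusted p below 0.05 with a 2-fold difference and leaving 3 residual degrees of freedom, gave 13 higher and 15 lower genes on day 3 and 4 lower ones on day 1. That fit takes the library kinds as replicates, so its p-values hold no spread between plants. No named gene changed direction on a day on which it was called. Of 49 calls of the 29 named genes, 43 held under every alternative that kept the gene. Many named genes were picked for the size of their ratios, which favours keeping their calls. All alternatives also used the same 8 libraries. A pseudocount of 5 ended 6 calls, those of Os01g0558100 (0.87), Os01g0933900 (0.72) and Os10g0528300 (-0.89) on day 1 and of Os01g0372400 (0.74), Os02g0814800 (-0.74) and Os10g0529400 (0.76) on day 2. The sign of the median day 3 ratio depended on the scaling: in the quantile-normalized values it was -0.36 in total RNA and 0.16 in mRNA, where all genes had -0.15 and -0.12. Another 2 alternatives were chosen after seeing the data. Leaving out Os04g0270100 changed none of the 6 counts, and a filter on the mean over all 8 libraries gave 14 genes higher on day 3. With 1 library per treatment and kind, variation between plants cannot be measured, and values near 1 FPKM rest on few fragments.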
